A study of Mus musculus with 6 samples.

Results

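Of the 464 capture probes for microRNAs (miRNAs) on these arrays, 170 carry the annotation that no mouse target is known, and 294 name a mouse miRNA. The 170 unnamed probes were taken by that annotation alone, with no measured value used. They are known here only by an identification number, such as 11115. Each was printed as 4 spots, 680 spots in all. The arrays measured total RNA of G1E-ER4 cells, a mouse erythroid line that lacks its own GATA-1 and carries an estrogen-responsive form of this transcription factor. Untreated cultures at 0 h (3 arrays) were compared with cultures given 1e-07 M estradiol for 24 h (3 arrays), and all cultures were independently grown in medium with erythropoietin and stem cell factor. The sample was in the Hy3 channel of each array, and Hy5 held a common reference mixed equally from all 6 samples. With no culture kept for 24 h without estradiol, and no cells without the inducible GATA-1, time in culture, other effects of estradiol and GATA-1 activity cannot be told apart.

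A miRNA is a short RNA that represses messenger RNAs, which it recognises mainly through its seed, bases 2 to 8 from its 5′ end. GATA-1 drives red cell maturation, and miR-451 is one of the miRNAs that accumulate in maturing red cells. A capture probe reports whatever RNA binds it, so a probe with no named mouse target can still give light. MiRNA arrays often hold such probes because they are designed against the miRNAs of several species and against candidate small RNAs.

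The mature sequences that follow belong to the named miRNAs whose log ratios lay nearest to those of the 3 unnamed probes that changed. They are from RefSeq (GRCm38.p6), written 5′ to 3′, with the seed in capitals. For miR-290 and miR-503 the array name gives no arm, so both arms are shown and which of them the probe captures is not known here.
miR-451a, Mir451a, chr11:78073186-78073207, plus strand, nearest to probe 11115: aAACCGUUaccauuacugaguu
miR-292a-5p, Mir292, chr7:3219200-3219221, plus strand, nearest to probe 11086: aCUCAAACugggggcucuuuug
miR-290a-5p, Mir290a, chr7:3218639-3218660, plus strand, 1 of 2 arms of miR-290, second nearest to probe 11086: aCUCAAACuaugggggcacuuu
miR-290a-3p, Mir290a, chr7:3218674-3218697, plus strand, the other arm of miR-290: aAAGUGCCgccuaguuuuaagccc
miR-503-5p, Mir503, chrX:53054027-53054049, minus strand, 1 of 2 arms of miR-503, nearest to probe 13131: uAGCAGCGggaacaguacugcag
miR-503-3p, Mir503, chrX:53053987-53054008, minus strand, the other arm of miR-503: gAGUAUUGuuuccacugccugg
miR-485-3p, Mir485, chr12:109734946-109734967, plus strand, second nearest to probe 13131: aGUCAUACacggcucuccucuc
MiR-292a-5p and miR-290a-5p share the seed CUCAAAC, and no seed is shared with miR-451a.

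A probe was called above background on an array when the median signal stood more than 2 background SD over the local background in a fraction 0.5 or more of its spots. By this measure 0 of 80 spots printed as empty were above background in Hy3 on any array, and in Hy5 1 of 80 was, on 1 estradiol array. The median Hy3 foreground of unnamed spots ranged from 1543 to 2101 (untreated) and from 1645 to 1755 (estradiol). That of the empty spots ranged from 1392 to 1834 and from 1410 to 1426, lower than the unnamed median on each of the 6 arrays. Among markers of the erythroid line, 4 of 6 listed miRNAs were above background on some array, and miR-144 and miR-486 were on none. None of the listed lymphoid (3), liver (1) or muscle (2) probes was, while 2 of 7 myeloid and mast cell, 2 of 4 megakaryocyte, 2 of 4 fibroblast and 1 of 2 neural probes were. In bulk RNA, fewer cells of a type and less RNA per cell cannot be told apart.

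Most unnamed probes did not pass the background limit in the sample channel. In Hy3, 131 of 170 were above background on no array, 21 on 1 to 5 arrays and 18 on all 6. In Hy5, 114 were above background on no array and 25 on all 6, and 112 were above it in neither channel on any array. Only 15 were above background in both channels on all 6 arrays. The 30 probes bright enough to test had a mean Hy3 foreground between 4233 and 61198, and the other 140 lay between 1459 and 4506, so the ranges met at their edges. Brightness between different probes does not order the amounts of their RNAs.

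Estradiol arrays tended to show more lit unnamed probes, in the sample and in the reference. The Hy3 counts were 22, 31 and 24 of 170 in untreated replicates 1 to 3, then 35, 34 and 30 in estradiol replicates 1 to 3. Untreated replicate 2 exceeded estradiol replicate 3, and the means differed by 7.33 probes (exact two-sided permutation test, p = 0.2; 3 arrays against 3 cannot go below 0.1). In Hy5, where every array received the same RNA, the counts were 31, 40 and 29 for untreated and 45, 44 and 41 for estradiol. The groups did not overlap, with a difference of 10.0 probes (exact permutation p = 0.1). The part of this Hy5 difference in the Hy3 difference was not tested. Whether groups overlapped depended on the limit. At 3 background SD the Hy3 counts were 18 to 23 untreated and 24 to 28 after estradiol (exact permutation p = 0.1). The Hy5 counts then overlapped, with 21 to 32 and 29 to 35 (exact permutation p = 0.2). At 1 background SD the groups overlapped in neither channel.

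The unnamed probes were lit in shares near those of the named ones in Hy3. The named counts in Hy3 were 38, 47 and 40 of 294 untreated and 58, 62 and 57 after estradiol. As shares, unnamed probes ranged from 12.9% to 20.6% over the 6 arrays and named probes from 12.9% to 21.1%. The unnamed share minus the named share was 0.93 ± 1.17 percentage points untreated and -0.66 ± 1.35 after estradiol (SD, n = 3). The exact two-sided permutation test over the 6 arrays gave p = 0.3 for that change of -1.58 points. With a limit of 1 background SD the unnamed share was below the named one on all 6 arrays. The differences were -6.28 to -1.82 points untreated and -5.69 to -3.52 after estradiol. At 3 background SD the unnamed share was above on all 6, by 1.28 to 3.45 points untreated and 0.17 to 1.84 after estradiol. The sign thus depended on the limit. In Hy5 at 2 SD the unnamed minus named share was 1.13 ± 1.91 points on untreated and -2.29 ± 1.89 on estradiol arrays (SD, n = 3). These groups did not overlap, with a change of -3.41 points (exact permutation p = 0.1, the smallest possible). Between the groups, 17 of 170 unnamed probes (55 of all 464) were above background in Hy3 on more estradiol than untreated arrays. On equally many were 150 (401 of all 464), so the unnamed shares were near those of all probes. Probes 11193 (3 untreated and 2 estradiol arrays) and 11151 (2 and 0), the latter named after its values were seen, went the other way. Probe 14267 had no usable spot on estradiol replicate 3 and was above background on the 5 arrays that measured it. Probe 11151 had a Hy3 foreground of 3664, 7119 and 5283 untreated and 2529.7, 3531 and 3466 after estradiol, and its Hy5 read 2301, 6296 and 4742 against 2191, 2746 and 2999. Untreated replicates 2 and 3 were the brightest for it in both channels.

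For the comparison of groups, log2(Hy3/Hy5), here called the log ratio, was set between estradiol and untreated arrays over all probes above background in Hy3 on all 3 arrays of a group. This left 30 of 170 unnamed and 51 of 294 named probes, 17.6% and 17.3%. Of the 30, 18 passed in both groups, 10 through the estradiol arrays alone and 2 (11193 and 14267) through the untreated arrays alone. Among them 3 changed at an adjusted p under 0.05 (limma, Benjamini-Hochberg over all 81 probes), 2 higher (11115 and 11086) and 1 lower (13131). Over all 81 probes 12.3% were called, 9.88% higher and 2.47% lower, so 3 of 30, or 10%, was close to the background. The median difference was -0.05 over the 30 unnamed probes and -0.05 over all 81, and 8 of the 30 (26.7%) had an unadjusted p under 0.05, against 28.4% of all 81. Among the 7 listed myeloid and mast cell probes only miR-142-3p, above background on all 6 arrays, was bright enough to test. It rose by 0.92 (limma adjusted p = 0.0068). In a fit of all probes, bright or dim, miR-21 (1.25), miR-142-5p (0.67), miR-223 (0.35) and a miR-146 probe (0.43) were higher. MiR-21 and miR-142-5p passed (limma adjusted p = 0.00019 and 0.027), while miR-223 and that miR-146 probe did not (0.28 and 0.55). MiR-155 (-0.18) and another miR-146 probe (-0.11) were lower and did not pass (limma adjusted p = 0.70 and 0.84). Of these dim probes only miR-142-5p was above background in Hy3 on any array. The tested erythroid miR-451 and miR-185 differed by 5.04 and -0.11 (limma adjusted p = 3.2e-09 and 0.45). The other listed erythroid miRNAs were too dim to test and were all higher in the fit of all probes. MiR-144 (1.4999), miR-16 (0.99) and miR-15b (0.76) passed (limma adjusted p = 1.1e-05, 0.018 and 0.0035). MiR-486 (0.41) did not (limma adjusted p = 0.20). Both miR-144 and miR-486 were above background in Hy3 on no array. The part of other cell types in the unnamed differences was not tested. With log ratios centred on 2 spiked control probes in place of loess, 2 of the 30 were called higher and 8 lower. Of all 81 probes 24 were then called, and the median difference of the 81 stood at -0.25. Whether these controls were spiked equally into both channels is not stated in the sources used here.

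Groups did not overlap for 12 of the 30 unnamed probes, 4 higher and 8 lower after estradiol. This was 40% of them, against 34.6% of all 81 tested probes. Among all 81, 13 were higher and 15 lower without overlap. Apart from 11115, the 29 other differences lay between -0.32 and 0.57 on the log2 scale. Across the 29 tested unnamed probes with a value on all arrays, which are not independent replicates, the log ratios of 2 arrays correlated at 0.975 to 0.987 within a group and at 0.553 to 0.698 between groups. Without 11115 the correlations between groups were 0.944 to 0.988, so the lower value rested on that probe. Without 11087, 11138 and 14302 as well, they were 0.534 to 0.755 within a group and -0.07 to 0.405 between groups over 25 probes. The spots of a tested unnamed probe had a median SD of 0.10 within an array, against 0.11 for tested named probes.

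Probe 11115 showed by far the largest change of any unnamed probe. Its Hy3 foreground was 1530.5, 1970.0 and 2043 untreated, against 13369, 17395 and 33069.5 after estradiol. The reference read 14002, 11883 and 21238 in Hy5 beside the untreated samples and 7271, 9600.5 and 25349 beside the estradiol samples. The sample channel was thus dark on every untreated array while the reference was bright on all 6. The log ratios were -5.32, -4.53 and -5.12 untreated and 0.83, 0.69 and 0.57 after estradiol. All estradiol arrays lay far above all untreated ones, by 5.69 (SE 0.18; limma adjusted p = 3.2e-09). The probe was above background on 0 of 3 untreated arrays and entered the test through the estradiol arrays alone, where it was high. The filter had thus used the contrast that was then tested. The 5.69 and its SE rest on untreated Hy3 values at background, so the probe's untreated level is only bounded. Its Hy3 signal was at least 6.66-fold higher after estradiol, measured against the lowest signal among probes above background on each untreated array. The bound is taken from the single channel, after loess and scaling between arrays, and without a dye swap it is open to dye bias.

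Among the 51 tested named probes, miR-451 was the nearest to 11115. On the estradiol arrays its log ratios were 0.79, 0.66 and 0.57, and 11115 exceeded them by 0.04, 0.03 and 0.01. On the untreated arrays, where both were below background in Hy3, miR-451 stood at -4.74, -4.11 and -4.25, and 11115 differed by -0.58, -0.42 and -0.87. Over 6 arrays the mean absolute difference was 0.32 and Pearson's r was 0.999. The second nearest, miR-500, lay 2.16 away with r = 0.990, although it too was higher on every estradiol array. A correlation near 1 over these arrays needs no more than a difference between the groups: 4 named probes had r above 0.9 with 11115. The spots of 11115 lay in the same blocks as those of miR-451, 5 grid steps apart. The tested probes 1 step from a miR-451 spot, unnamed probe 11264 and miR-345, differed by 0.08 and -0.07 (limma adjusted p = 0.62 and 0.69). Probe 11264 was itself bright, with a Hy3 foreground of 19445 to 35289, so little added light would show in its log ratio. Whether light from miR-451 spots reached those of 11115 was not tested.

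Probe 11086 rose on a smaller scale. Its log ratios were -0.39, -0.38 and -0.77 untreated and 0.13, 0.03 and 0.02 after estradiol. The groups did not overlap, and the difference was 0.57 (SE 0.11; limma adjusted p = 0.0068), a 1.49-fold rise. It was above background in both channels on all 6 arrays, with a Hy3 foreground of 8503, 14059 and 8618 untreated and 15441, 16090.0 and 13459.5 after estradiol. The call held with any 1 array left out (0.45 to 0.64). It ended with median centring (0.52; adjusted p = 0.279) and in Hy3 alone, without the reference (0.15; adjusted p = 0.667).

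The named probes nearest to 11086 were miR-292-5p (mean absolute difference 0.15, r = 0.964) and miR-290 (0.17, r = 0.934), over 6 arrays. Both miRNAs come from a gene cluster active in early embryonic cells. The 5p arms share the seed CUCAAAC printed above, but the arm that the miR-290 probe captures is not given. MiR-292-5p had log ratios of -0.06, -0.28 and -0.61 untreated and 0.22, 0.12 and 0.15 after estradiol. Untreated replicate 3 was the lowest array for 11086, miR-292-5p and miR-290 alike. In every array 11086 lay below miR-292-5p, by 0.09 to 0.33.

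Probe 13131 was the unnamed probe that fell. Its log ratios were 0.31, 0.14 and 0.13 untreated and -0.13, -0.09 and -0.18 after estradiol. The groups did not overlap, and the difference was -0.32 (SE 0.08; limma adjusted p = 0.034). It was among the brightest unnamed probes, with a Hy3 foreground between 15056 and 31158 and every array above background. The call ended in 9 of 24 alternatives, among them leaving out any 1 estradiol array (adjusted p = 0.118, 0.0872 and 0.169 without replicates 1, 2 and 3), while its value stayed between -0.50 and -0.25.

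The nearest named probes to 13131 were miR-503 (mean absolute difference 0.07, r = 0.860) and miR-485-3p (0.08, r = 0.871). MiR-503 is encoded on the X chromosome beside miR-322, and its 5p arm has a seed that resembles that of the miR-15 and miR-16 family. Its log ratios were 0.23, 0.04 and 0.31 untreated and -0.05, -0.09 and -0.19 after estradiol, a difference of -0.31 that did not pass (limma adjusted p = 0.062). Such closeness was common among probes that differ little between arrays. The nearest named probe lay within 0.1 for 22 of the 30 tested unnamed probes, with a median of 0.07, and the smallest distance was 0.04, between 11126 and miR-494.

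The next largest differences did not pass the threshold although their groups did not overlap. Probe 11130 stood at -0.10, -0.16 and -0.41 untreated and -0.01, 0.13 and 0.14 after estradiol (0.31; limma adjusted p = 0.077), and it passed without untreated replicate 1 (0.37; adjusted p = 0.0224). Probe 14316 stood at 0.16, 0.01 and 0.27 against -0.12, -0.15 and -0.10 (-0.27; adjusted p = 0.076), and it passed without untreated replicate 2 (-0.34; adjusted p = 0.0215). In both, the spread was among the untreated arrays more than among the estradiol arrays. Probe 14316 followed miR-422b within 0.04 on average (r = 0.970), and 11130 followed miR-290 within 0.10 (r = 0.793). Probes 11175 (-0.23), 11142 (-0.23), 11193 (-0.19) and 11135 (-0.17) were lower on all estradiol arrays without passing (limma adjusted p = 0.13 to 0.29). On the higher side, 11270 (0.17) and 11138 (0.17) had overlapping groups.

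Of the 8 unnamed probes that gave the most light, 13131 fell and the other 7 did not pass. Probe 14267, the brightest, was saturated in all 11 spots kept, in both channels, so the order of its log ratios (-0.17, 0.18 and 0.33 untreated, 0.02 and -0.03 after estradiol) is not measured. Estradiol replicate 3 left no usable spot of it, its fit used the other 5 arrays, and no fold is given. Probe 11126 was saturated in 4 of 17 spots in Hy3 and 11 in Hy5, so its difference of -0.04 (SE 0.12) is not well measured. Probe 11146 had a Hy3 foreground between 28702 and 50667 and differed by -0.15 (SE 0.09). The others that did not pass were 11264 (0.08), 10993 (-0.11), 11145 (0.02) and 11130 (0.31). Untreated replicate 1 gave the lowest Hy3 foreground of the 3 untreated arrays for 11126, 11130, 11146, 11264, 11145 and 13131, and in each its Hy5 reference was the lowest of all 6 arrays.

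In 3 tested unnamed probes the sample exceeded the reference by more than 2-fold on every array. Probe 11138 was the extreme: its log ratios were 3.94, 4.46 and 4.07 untreated and 3.81, 4.15 and 5.01 after estradiol. Its Hy3 foreground was between 6431 and 8947, and its Hy5 was above background on no array, so the size of its ratio is not measured. The groups overlapped (0.17, SE 0.32; limma adjusted p = 0.79). Probe 11087 had log ratios of 3.02, 2.04 and 1.74 untreated and 2.36, 2.16 and 2.07 after estradiol, with Hy5 above background on 4 of 6 arrays and overlapping groups (-0.07). Probe 14302 stood at 2.03, 2.17 and 1.82 against 2.23, 2.39 and 2.33, without overlap, and did not pass (0.31; limma adjusted p = 0.11). Its Hy5 was above background on 3 of 6 arrays, 2 untreated and 1 estradiol, and in Hy3 alone its difference was -0.50. An equal mixture of all 6 samples should give a mean ratio near 1. For 26 other tested unnamed probes (all but 11115) the mean ratio had a median of 0.968 and a range of 0.755 to 1.09. The loess normalization itself draws most ratios of an array towards 1, so these values do not test the mixture. The mean ratios of 11087 and 14302 were 4.89 and 4.51, which rest in part on arrays where the reference was not above background.

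Probe 11176 was, besides 11115, the only unnamed probe above background in Hy3 on no untreated and all 3 estradiol arrays. Its log ratio did not follow: it was 0.04, -0.04 and -0.02 untreated and -0.12, -0.22 and -0.03 after estradiol (-0.11; limma adjusted p = 0.60). Its Hy3 foreground was 2964, 4878 and 3103 against 5525, 4501 and 4425, and Hy5 read 1831, 4469 and 2786 against 4992, 3788 and 4162. Both channels were low on untreated replicates 1 and 3, so passing the background limit did not amount to a difference from the reference.

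The 140 unnamed probes too dim for the filter were compared in a fit without it. Over all 464 probes 5.39% were then called, 4.53% higher and 0.862% lower, and among the unnamed 6 of 170, or 3.53%, passed, 4 higher and 2 lower. These were the 3 probes above with 11045, 14311 and 11191. Probe 11045 had log ratios of -1.01, -0.90 and -0.62 untreated and 0.22, 0.16 and 0.26 after estradiol (1.05, SE 0.14; limma adjusted p = 0.00019). It was the only unnamed probe above background in Hy5 on all 6 arrays and in Hy3 on none, so both groups were below background in the sample and no fold is given. In Hy3 alone its call ended (0.44; limma adjusted p = 0.532). Its nearest tested named probe was miR-500 (mean absolute difference 0.21, r = 0.951).

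Probe 14311 stood at -0.91, -0.80 and -1.05 untreated and 0.46, 0.47 and -0.20 after estradiol (1.16; limma adjusted p = 0.0013), and was above background in neither channel on any array. With the loess curve drawn only through probes lit in both channels its difference was 0.03 (limma adjusted p = 0.966). Probe 11191 stood at 0.68, 0.46 and 0.30 against -0.50, -0.02 and -0.16 (-0.70; limma adjusted p = 0.014). Only 12 of its 24 spots were kept, and its call ended without estradiol replicate 1 (-0.57; adjusted p = 0.121) and without untreated replicate 1 (-0.61; adjusted p = 0.0609). It ended as well with median centring (limma adjusted p = 0.0751), no intensity trend (0.0764) and in Hy3 alone (0.577). Neither had a Hy3 signal above background on any untreated array, and in 11191 2 estradiol arrays were above it.

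The numbers of the unnamed probes run together in places. The longest unbroken run, 11134 to 11177, holds 44 probes, of which 8 (18.2%) were tested, 5 were above background in Hy3 on all 6 arrays and 0 passed by limma's test. The run from 11258 to 11275 holds 18 probes with 3 tested, and that from 13126 to 13134 holds 9 with 2 tested, one of which was 13131. Probe 11086 lies in a run of 5 (11083 to 11087) with 2 tested, the other being 11087. Over the 6 runs of at least 5 probes the share tested ranged from 11.1% to 40%, against 17.6% of all unnamed probes.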

How the data were processed

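Per the file headers, the deposited scanner tables hold a foreground intensity and a local background per spot and channel, unsubtracted, with spot flags; the scanner and its software are not named in the sources used here. The authors' log2 ratios are Hy3 over Hy5 after lowess within the array, per the file headers, and served as an alternative. Groups and replicate numbers came from the sample titles. Intensities were corrected with normexp (offset 50) and normalized within each array (global loess, weight 0 for control spots). Spots flagged for shape or contamination (131 to 224 of 2240 per array) were left out, saturated ones kept, and spots of a probe averaged. The fit used lmFit and eBayes with an intensity trend (limma 3.58.1, R 4.3.3), Benjamini-Hochberg over named and unnamed probes together, threshold 0.05, and the procedure was tested on simulated data. The number of arrays limits the precision.

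The members, lists and rules were chosen with earlier results of these data known. Unnamed probes named in the text are those past the threshold, the 6 largest differences each way, the 8 brightest, those above background in Hy3 on all arrays of one group and none of the other, those with a ratio above 2 or below 0.5 on every array, and those past the threshold only without the filter. For each probe past the threshold, the 2 nearest tested named probes are given. No figure was drawn.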

Additional observations from a re-analysis of the deposited data

How the results depend on the processing

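Probe 11115 kept its direction and passed in all 23 alternatives that tested it (3.94 to 5.92). The filter by the spot finder's empty call was added after seeing the data. The count of 3 unnamed probes became 6 with no brightness filter, 1 with median centring, 10 with centring on spiked controls and 1 in Hy3 alone, and 2 to 5 with 1 array left out. Leaving out untreated replicate 1 gave 5, as did leaving out untreated replicate 2. Over all tested probes the count of 10 became 25 with no brightness filter and 5 with median centring. It became 24 with spiked controls, 4 in Hy3 alone and 7 to 15 with 1 array left out. The count of 6 without the filter became 1 in Hy3 alone, 3 with no intensity trend, 11 with the replicate block and 3 to 7 with 1 array left out (3 without estradiol replicate 1). Over all 464 probes the count of 25 became 5 in Hy3 alone and 10 with no intensity trend. With the replicate block it became 36, and with 1 array left out 13 to 27. No filter tests more probes; otherwise the cause was not tested. A loess curve through probes lit in both channels alone moved the median of all 464 probes from -0.04 to -0.96. The shared replicate numbers showed no clear pairing of the arrays (correlations of deviations 0.15, -0.10 and -0.06), which so few arrays do not settle. With the filter the replicate block gave 2 unnamed probes, and 9 over all tested probes. At 1 background SD the change with estradiol in the unnamed minus named share turned from -1.58 to 0.47 points. Among probes that did not pass, signs turned in Hy3 alone for 10993 (0.13), 11138 (-0.22), 11176 (0.42), 11264 (-0.14), 14267 (0.0067), 14302 (-0.50) and 14316 (0.044). With no background correction they turned for 11087 (0.10) and 11126 (0.0044), and with that loess curve for 11087 (0.0090), 11126 (0.014) and 11138 (-0.32). With spiked controls they turned for 11138 (-0.0052), 11145 (-0.19), 11264 (-0.092) and 11270 (-0.0078). Probe 11145 turned with median centring (-0.054), the median of spots (-0.048) and the authors' ratios (-0.078), where 11138 stood at -0.20. With 1 array left out, 11087 ranged from -0.33 to 0.31, 11126 from -0.17 to 0.029, 11138 from -0.17 to 0.42 and 11145 from -0.063 to 0.14. A slide or scan block was not run, as the tables used here name neither.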
